A study of Mus musculus with 25 samples.

Results

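The vascular endothelial growth factor (VEGF) and angiopoietin ligands and receptors were described as 10 genes chosen by symbol: the ligands Vegfa, Vegfb, Vegfc and Pgf with the receptors Kdr and Flt1, and the ligands Angpt1 and Angpt2 with the receptors Tek and Tie1. All 10 were found among the 18440 genes listed in every table, and 9 of the 10 were among the 13117 genes with enough signal to be tested. Angpt1 was the gene left out. The data were 25 bulk RNA-seq libraries of retina from wild-type C57BL/6J mice, 5 in each of 5 groups. The mice had received an intravitreal injection at postnatal day 30 of AA147 (an activator of the ER stress sensor ATF6), Ceapin-A7 (an inhibitor of ATF6), tunicamycin (the positive control, which blocks N-glycosylation and so causes ER stress) or vehicle alone. Compounds were given to both eyes at 10 µM in 1 µL of saline with 0.05 to 0.1% dimethyl sulfoxide. The vehicle libraries are labelled PBS and formed vehicle set 1, whose table lists the same genes as that of AA147, and vehicle set 2, whose table lists the same genes as those of tunicamycin and Ceapin-A7. Each compound was therefore compared with the vehicle set of its own gene list.

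VEGF-A is the main growth and permeability factor of blood vessels. In the retina it is made by glia and neurons and acts on endothelial cells. It signals chiefly through KDR (VEGFR2), while FLT1 (VEGFR1) binds it more tightly with weaker signalling, and a secreted form of FLT1 acts as a decoy. The angiopoietins act on TEK (TIE2), an endothelial receptor: angiopoietin-1, made largely by pericytes, activates it and steadies the vessel wall, and angiopoietin-2, released by endothelial cells themselves, mostly competes with angiopoietin-1. TIE1 binds neither ligand strongly and modulates TEK. The values were summed per gene, so secreted FLT1 and the splice forms of VEGF-A were not separated.

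A time of 24 h stands in the column names of the compound libraries. The vehicle columns name no time, although several collection times are part of the series. Time after injection and compound thus cannot be told apart against vehicle, whereas tunicamycin and Ceapin-A7 share the labelled time. Libraries held roughly 15.2 to 25.2 M fragments, as estimated from the steps between low values. The lens protein gene Cryaa was above 1000 FPKM (fragments counted on a gene, divided by its transcript length and by library size) in 6 libraries, namely vehicle set 2 library 1, tunicamycin libraries 1, 2 and 5 and Ceapin-A7 libraries 1 and 5. Over 15 lens markers the summed level was 78.3 to 18069 FPKM with tunicamycin and 76.2 to 6769 FPKM in vehicle set 2. Of these markers 0 of 15 were called, beside 8.7% of all genes tested, and 0 of 15 were at 0 throughout a group. The Y-linked gene Ddx3y fell short of 1 FPKM in 4 of the 5 vehicle set 2 libraries, in 2 of 5 with AA147 and with Ceapin-A7, and in 0 of 5 with tunicamycin and in vehicle set 1. The ER chaperone gene Hspa5 reached 229 to 1513 FPKM with tunicamycin, against 106 to 162 in vehicle set 2. All 20 endothelial markers listed were detected in each group.

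Promoter windows are shown for 4 members whose level differed between tunicamycin and vehicle, so that the regulatory sequence can be set beside the values. They run from 250 bases before to 50 bases after the RefSeq start, on the mouse build GRCm38.p6, which is earlier than the build GRCm39 named by the submitters. Windows were found for 8 of the 10 members, all but Angpt1 and Angpt2, and for Vegfa the first of 2 is given. They lie at chr17:46032328-46032627 on the minus strand for Vegfa, chr5:147725962-147726261 on the minus strand for Flt1, chr4:94739039-94739338 on the plus strand for Tek and chr4:118489800-118490099 on the minus strand for Tie1. Capitals mark matches, on either strand, to GGAAG (an extended form of the GGAA core bound by ETS factors) or GCGTG (a hypoxia response core).
Vegfa: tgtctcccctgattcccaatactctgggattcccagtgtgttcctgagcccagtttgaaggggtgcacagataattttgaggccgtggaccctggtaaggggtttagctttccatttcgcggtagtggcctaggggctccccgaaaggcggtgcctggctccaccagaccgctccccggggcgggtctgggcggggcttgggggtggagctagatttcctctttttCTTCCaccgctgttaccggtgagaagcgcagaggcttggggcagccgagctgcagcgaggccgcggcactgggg
Flt1: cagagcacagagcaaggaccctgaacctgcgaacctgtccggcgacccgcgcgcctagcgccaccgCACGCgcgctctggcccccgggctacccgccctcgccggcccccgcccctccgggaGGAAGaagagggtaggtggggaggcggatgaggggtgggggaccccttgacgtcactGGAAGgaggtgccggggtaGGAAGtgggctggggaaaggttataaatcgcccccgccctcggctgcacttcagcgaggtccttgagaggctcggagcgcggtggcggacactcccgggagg
Tek: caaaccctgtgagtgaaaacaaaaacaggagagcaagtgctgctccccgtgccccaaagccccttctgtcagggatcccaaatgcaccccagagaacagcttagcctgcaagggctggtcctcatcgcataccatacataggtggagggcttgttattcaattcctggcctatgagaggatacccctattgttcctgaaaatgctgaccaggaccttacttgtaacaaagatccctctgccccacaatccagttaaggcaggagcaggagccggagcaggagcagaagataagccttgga
Tie1: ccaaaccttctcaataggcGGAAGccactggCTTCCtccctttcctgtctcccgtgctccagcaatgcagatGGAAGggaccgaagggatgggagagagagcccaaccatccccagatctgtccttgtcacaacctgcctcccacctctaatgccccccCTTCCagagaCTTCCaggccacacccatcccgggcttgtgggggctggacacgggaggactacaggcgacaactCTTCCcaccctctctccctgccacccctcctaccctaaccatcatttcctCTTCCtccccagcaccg
GGAAG occurred 7 times in the Tie1 window, 3 times in that of Flt1, once in that of Vegfa and 0 times in that of Tek. Of all 32851 windows of the same length, 71.4% held it. Each of the 4 windows shown also holds the shorter GGAA outside these matches, unmarked and not counted. GCGTG occurred once in the Flt1 window and in 32.4% of all windows. The other hypoxia core, ACGTG, was in 19.6% of all windows and in none of the 4 shown. The second Vegfa window, which is not shown, held 1 ACGTG, 1 GCGTG and 2 GGAAG. The ATF4-type motif TGATGNAAN, in 4.0% of all windows, and the ER stress element, in 0.1%, had 0 matches in any window of the 8 members. Angpt1 and Angpt2 could not be searched. These matches describe the letters only.

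In the 10 vehicle libraries Vegfa, Kdr and Vegfb were the most abundant members per kilobase, with median levels of 76.1, 39.1 and 38.3 FPKM. Flt1 followed at 15.8 FPKM. The angiopoietin receptors Tie1 and Tek were at 2.29 and 2.11 FPKM, and Vegfc, Pgf and Angpt2 at 1.30, 1.28 and 1.07 FPKM. Angpt1 was lowest, at 0.335 FPKM. The ranges of neighbours in this order overlapped for Kdr and Vegfb, for Tie1 and Tek, and among Vegfc, Pgf and Angpt2.

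With tunicamycin, the ligands Vegfa and Angpt2 rose and the receptors Flt1, Tek and Tie1 fell relative to vehicle set 2 (limma, Benjamini-Hochberg adjusted p under 0.05 over all 13117 genes). Angpt2 was 3.54-fold and Vegfa 1.66-fold its vehicle level, while Tek, Flt1 and Tie1 were at 0.447, 0.654 and 0.687 of theirs. Of the 9 members tested, 2 were called higher and 3 lower, where 5.89% and 2.81% of all genes tested were called in those directions and 8.7% in either. The libraries of both groups did not overlap for 4 of the 9, Vegfa, Flt1, Angpt2 and Tek, against 4.05% of all genes tested. For these 4, all 5 tunicamycin libraries also lay outside the range of all 20 other libraries. Neither Ceapin-A7 nor AA147 gave a call for any of the 9 members against its own vehicle set, nor for any of all genes tested (0%).

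**Figure D1:**
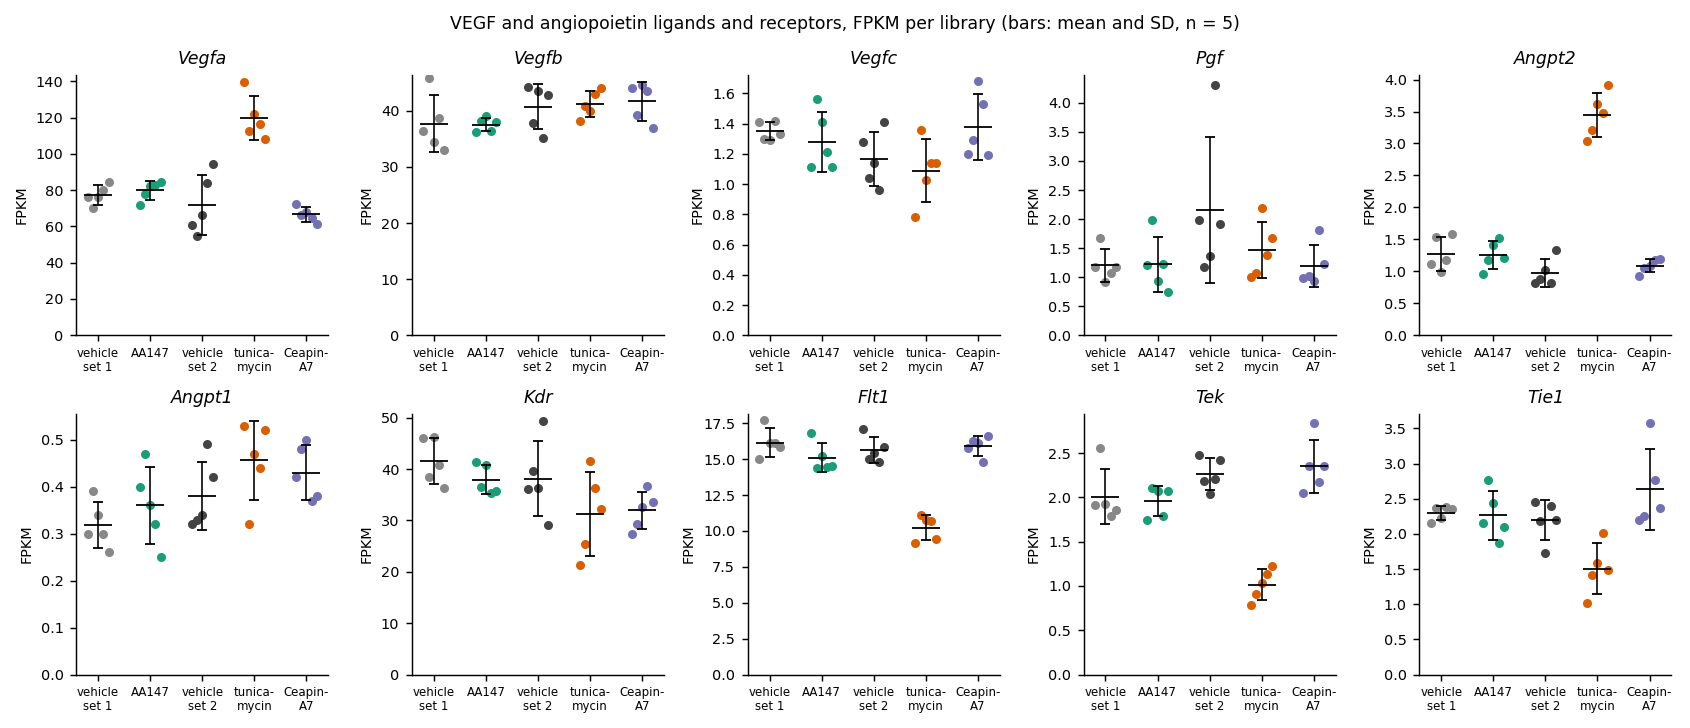
Level of each of the 10 members in FPKM (linear axis from 0) in the 5 groups, with 1 point per library and the bar and whiskers giving the mean and SD of 5 libraries. The tunicamycin libraries lie above all others for Vegfa and Angpt2 and below all others for Flt1 and Tek.

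The main VEGF ligand, Vegfa, measured 60.5, 54.9, 66.1, 84.2 and 94.1 FPKM in vehicle set 2 (72.0 ± 16.6, SD, n = 5). With tunicamycin it measured 139, 112, 122, 117 and 108 FPKM (119.8 ± 12.2). Every tunicamycin library was above every vehicle library, and vehicle libraries 4 and 5 were the highest of their set. The log2 difference was 0.75 ± 0.10 (SE, adjusted p = 5.66e-05 by limma), on the log2(FPKM + 1) scale used throughout, which understates the change of genes near 1 FPKM. Without vehicle libraries 4 and 5 it was 0.97, and without the 6 libraries rich in lens transcript it was 0.70 (adjusted p = 0.0232). Tunicamycin libraries 3 and 4, in which Cryaa was low (0.970 and 52.0 FPKM), had Vegfa at 122 and 117 FPKM, inside the range of libraries 1, 2 and 5.

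The other VEGF ligands gave no call with tunicamycin. Vegfb, a ligand of FLT1 that does not bind KDR, stood at 41.2 ± 2.35 FPKM against 40.7 ± 4.00, a log2 difference of 0.02 (95% interval -0.13 to 0.17, adjusted p = 0.900). Vegfc, the ligand of the lymphatic receptor FLT4, stood at 1.09 ± 0.211 FPKM against 1.17 ± 0.181, a difference of -0.05 ± 0.08. Both overlapped between the groups. Pgf, another ligand of FLT1, was at 1.98, 1.17, 1.37, 4.31 and 1.92 FPKM in vehicle set 2 and at 1.01, 1.08, 2.19, 1.38 and 1.67 FPKM with tunicamycin. Vehicle library 4 stood apart from the rest of its set. The log2 difference of Pgf was -0.30 ± 0.19 with that library and -0.09 without it, and the groups overlapped in both cases.

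The angiopoietins differed from each other. Angpt2 measured 0.820, 0.880, 1.02, 0.810 and 1.34 FPKM in vehicle set 2 (0.974 ± 0.221) and 3.04, 3.21, 3.62, 3.47 and 3.92 FPKM with tunicamycin (3.45 ± 0.345). The lowest tunicamycin library was above the highest library of any other group, which held 1.59 FPKM. This was the largest difference among the members, 1.18 ± 0.09 on the log2 scale (adjusted p = 3.35e-09, limma). With a pseudocount of 0.1 instead of 1 it was 1.74. Angpt1 remained under 0.6 FPKM everywhere, at 0.456 ± 0.0844 FPKM with tunicamycin and 0.380 ± 0.0731 in vehicle set 2, and the groups overlapped. Fitted without the filter on low values, its log2 difference was 0.08 ± 0.05 (adjusted p = 0.359, limma). Exons of Angpt1 overlap the gene Gm17473 on the opposite strand, and whether the counting used strand is not given in the sources used here, so its low values are uncertain.

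Of the VEGF receptors, Flt1 fell. It measured 17.1, 14.99, 15.4, 14.8 and 15.8 FPKM in vehicle set 2 (15.6 ± 0.897) and 9.14, 11.1, 10.8, 10.7 and 9.42 FPKM with tunicamycin (10.2 ± 0.880). The ranges lay well apart, and the log2 difference was -0.57 ± 0.05 (adjusted p = 2.34e-07, limma). Kdr measured 36.2, 39.7, 36.4, 49.4 and 29.1 FPKM in vehicle set 2 and 21.2, 25.4, 41.5, 36.3 and 32.3 FPKM with tunicamycin. These ranges overlapped widely, and the log2 difference of -0.29 ± 0.14 (95% interval -0.58 to -0.01) had an adjusted p of 0.189 by limma. Tunicamycin library 3 was the highest for Kdr, and without it the difference was -0.40 (adjusted p = 0.0433).

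Of the TIE receptors, Tek fell the further. It measured 2.48, 2.18, 2.04, 2.21 and 2.42 FPKM in vehicle set 2 (2.27 ± 0.181) and 0.780, 0.910, 1.03, 1.13 and 1.22 FPKM with tunicamycin (1.01 ± 0.174). The groups did not overlap, and the log2 difference was -0.70 ± 0.07 (adjusted p = 1.30e-06, limma), or -1.098 with a pseudocount of 0.1. Tie1 measured 2.45, 2.18, 1.73, 2.40 and 2.2 FPKM in vehicle set 2 (2.19 ± 0.284) and 1.02, 1.42, 1.58, 2.02 and 1.49 FPKM with tunicamycin (1.51 ± 0.358). The groups overlapped through tunicamycin library 4 and vehicle library 3. The log2 difference of Tie1 was -0.36 ± 0.10 (adjusted p = 0.0277, limma). That call was the weakest of the 5, and leaving out vehicle library 1 or 4 or tunicamycin library 1 or 2 in turn gave adjusted p-values of 0.0698, 0.0606, 0.106 and 0.0516. Without the 6 libraries rich in lens transcript, Tie1 changed by -0.16 (adjusted p = 0.681), leaving 2 members higher and 2 lower. That fit lacked 3 of the 5 tunicamycin libraries and so had less power.

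The comparison with vehicle set 2 also differs in Ddx3y, which was under 1 FPKM in 4 of 5 vehicle set 2 libraries and 0 of 5 tunicamycin libraries. Because Ddx3y is Y-linked, the sex of the mice was probably unequal between these groups. With the Ddx3y level as a covariate, Vegfa, Flt1, Angpt2 and Tek kept their calls, at log2 differences of 0.64, -0.60, 1.19 and -0.73. Tie1 did not (adjusted p = 0.0650, limma). The 3 Ceapin-A7 libraries that carried Ddx3y, as all tunicamycin libraries did, had Vegfa at 66.5 to 72.4 FPKM, Flt1 at 15.8 to 16.3 FPKM, Angpt2 at 0.930 to 1.09 FPKM and Tek at 2.05 to 2.84 FPKM, outside the tunicamycin range for each. The 1 vehicle set 2 library with Ddx3y, library 5, had the highest Vegfa (94.1 FPKM) and Angpt2 (1.34 FPKM) of its set, with Flt1 at 15.8 FPKM and Tek at 2.42 FPKM, and it too lay outside the tunicamycin range for these 4 genes.

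**Figure D2:**
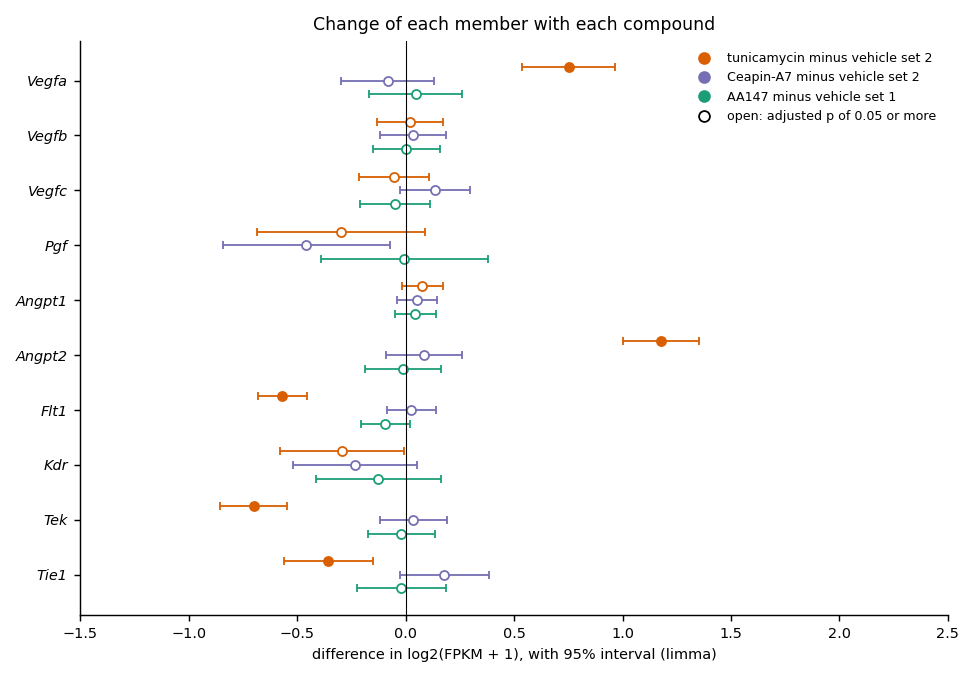
Log2 difference in log2(FPKM + 1) of each member for each compound against its vehicle set, with 95% intervals from limma and open symbols where the adjusted p was 0.05 or more. Filled symbols appear with tunicamycin only, for Vegfa, Angpt2, Flt1, Tek and Tie1, and Angpt1 comes from the fit without the filter on low values.

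Ceapin-A7 left no member called against vehicle set 2, its own vehicle set, and 0 of all genes tested were called (0%). At an unadjusted p under 0.05, 1615 genes (12.3%) passed, among them 1 of the 9 members, Pgf. Vegfa measured 72.4, 66.5, 68.0, 64.5 and 61.6 FPKM (66.6 ± 4.03), inside the range of vehicle set 2, with a log2 difference of -0.08 (95% interval -0.30 to 0.13). Angpt2 was at 0.930 to 1.19 FPKM and differed by 0.08 (-0.09 to 0.26). Tek was at 2.05 to 2.84 FPKM and differed by 0.03 (-0.12 to 0.19). The intervals of these 3 genes do not reach the size of the tunicamycin differences. Among the receptors, Flt1 was at 14.8 to 16.6 FPKM (0.03 ± 0.05), Tie1 at 2.2, 2.26, 3.58, 2.76 and 2.37 FPKM (0.18 ± 0.10, adjusted p = 0.465) and Kdr at 27.4, 29.3, 32.7, 36.8 and 33.6 FPKM (-0.24 ± 0.14, adjusted p = 0.485). Their libraries overlapped those of vehicle set 2. Vegfb stood at 41.7 ± 3.44 FPKM and Vegfc at 1.38 ± 0.217 FPKM, with differences of 0.03 and 0.13. Angpt1, at 0.430 ± 0.0583 FPKM, differed by 0.05 ± 0.05 in the fit without the filter. The largest Ceapin-A7 value was that of Pgf, -0.46 ± 0.19 (adjusted p = 0.343, limma), which was -0.25 without vehicle library 4.

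AA147 likewise left 0 of 9 members and 0 of all genes tested (0%) called against vehicle set 1, while 246 genes (1.88%) and 0 members passed an unadjusted p under 0.05. Vegfa measured 71.6, 77.7, 82.2, 82.8 and 84.6 FPKM with AA147 (79.8 ± 5.23) and 76.1, 70.1, 76.1, 79.8 and 84.4 FPKM in vehicle set 1 (77.3 ± 5.29). The groups lay over each other, with a log2 difference of 0.05 (95% interval -0.17 to 0.26). Flt1 was at 14.4 to 16.8 FPKM against 15.03 to 17.7 FPKM and differed by -0.09 (-0.21 to 0.02). Kdr measured 41.5, 36.5, 40.8, 35.4 and 35.7 FPKM with AA147 and 46.1, 38.5, 46.2, 40.8 and 36.3 FPKM in vehicle set 1, a difference of -0.13 ± 0.14. Vegfb, at 37.6 ± 1.23 against 37.7 ± 5.03 FPKM, Vegfc, at 1.28 ± 0.199 against 1.35 ± 0.0612 FPKM, and Pgf, at 1.22 ± 0.475 against 1.21 ± 0.287 FPKM, overlapped between the groups. Angpt1 was at 0.360 ± 0.0828 against 0.318 ± 0.0492 FPKM. Angpt2, Tek and Tie1 differed by -0.01, -0.02 and -0.02 on the log2 scale. Adjusted p-values of all 9 were 0.9998.

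Compounds were then compared with each other. Tunicamycin against Ceapin-A7 gave the same 5 members as against vehicle, with no overlap of libraries for any of the 5, where 13.3% of all genes tested were called, 8.83% higher and 4.48% lower, and 9.48% did not overlap. The log2 differences were 0.83 ± 0.10 for Vegfa (adjusted p = 1.19e-05), 1.09 ± 0.09 for Angpt2 (9.09e-09), -0.59 ± 0.05 for Flt1 (1.01e-07), -0.73 ± 0.07 for Tek (4.80e-07) and -0.53 ± 0.10 for Tie1 (0.00144), all by limma. Without the 6 libraries rich in lens transcript, Tie1 was at -0.46 and lost its call (adjusted p = 0.134), in a fit that lacked 3 of the 5 tunicamycin libraries. Kdr stood at 31.3 ± 8.18 FPKM with tunicamycin and 32.0 ± 3.67 FPKM with Ceapin-A7, a difference of -0.06 (95% interval -0.35 to 0.23). This comparison and the one with vehicle set 2 share the tunicamycin libraries and are not independent.

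The tunicamycin difference, taken against its own vehicle set, was also set against that of AA147, where 1.04% of all genes tested were called, 0.64% higher and 0.396% lower. The difference of differences was 1.19 ± 0.12 for Angpt2 (adjusted p = 1.92e-06), -0.68 ± 0.11 for Tek (0.000704), -0.48 ± 0.08 for Flt1 (0.00125) and 0.71 ± 0.15 for Vegfa (0.0128), by limma. For Tie1 it was -0.34 ± 0.14 and was not called (0.245). Without the 6 libraries rich in lens transcript, the adjusted p by limma was 0.177 for Vegfa and 0.0637 for Flt1. That fit lacked 3 of the 5 tunicamycin libraries and so had less power. With the Ddx3y covariate the adjusted p was 0.234 for Vegfa. AA147 set against Ceapin-A7 in the same way gave 0 calls among the members and among all genes (0%), with 882 genes (6.72%) and 0 members at an unadjusted p under 0.05. The Vegfa value there was 0.13 (95% interval -0.17 to 0.43) and that of Pgf 0.45 (-0.10 to 1.00), so both intervals held 0.

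The vehicle sets themselves differed in 46.8% of all genes tested but in 0 of the 9 members as fitted. At an unadjusted p under 0.05, 52.8% of genes and 2 of the 9 members passed. Angpt2 was at 1.28 ± 0.266 FPKM in set 1 and 0.974 ± 0.221 FPKM in set 2 (-0.21 ± 0.09, adjusted p = 0.0518, limma), and it was called in 11 of 24 alternatives (adjusted p = 0.0108 to 0.155). Vegfa, at -0.13 (adjusted p = 0.326), was called lower in set 2 in 3 of 24, at -0.23 without set 2 library 5 (0.0410), at -0.22 with library weights (0.0274) and at -0.35 without libraries 4 and 5 (0.000852). Pgf was at 1.21 ± 0.287 and 2.15 ± 1.26 FPKM (0.45 ± 0.19, adjusted p = 0.0538, or 0.24 without vehicle set 2 library 4) and was called in 4 of 24 alternatives. Vegfb was called in 2 of 24 and Tek in 1 of 24. Against vehicle set 1, the tunicamycin differences were 0.62 for Vegfa, 0.97 for Angpt2, -0.61 for Flt1 and -0.58 for Tek. Kdr was then called lower with tunicamycin (-0.43, adjusted p = 0.0108, limma) and also with Ceapin-A7 (-0.37, adjusted p = 0.0283). These values compare tables that list different genes.

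Ratios between members in each library are given as a description, without a test, and restate the member levels given above. The FPKM ratio of Angpt2 to Tek was 3.07 to 3.90 in the tunicamycin libraries and 0.331 to 0.554 in vehicle set 2, and no library of another group exceeded 0.855. The ratio of Vegfa to Flt1 was 10.1 to 15.3 with tunicamycin and 3.54 to 5.94 in vehicle set 2. Angpt2 to Angpt1 was 5.74 to 10.0 with tunicamycin against 1.65 to 3.19 in vehicle set 2, but reached 6.12 in vehicle set 1, where the range overlapped that of tunicamycin. This ratio divides by the low and uncertain values of Angpt1. Flt1 to Kdr, at 0.343 ± 0.0846 with tunicamycin and 0.424 ± 0.0923 in vehicle set 2, overlapped too.

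**Figure D3:**
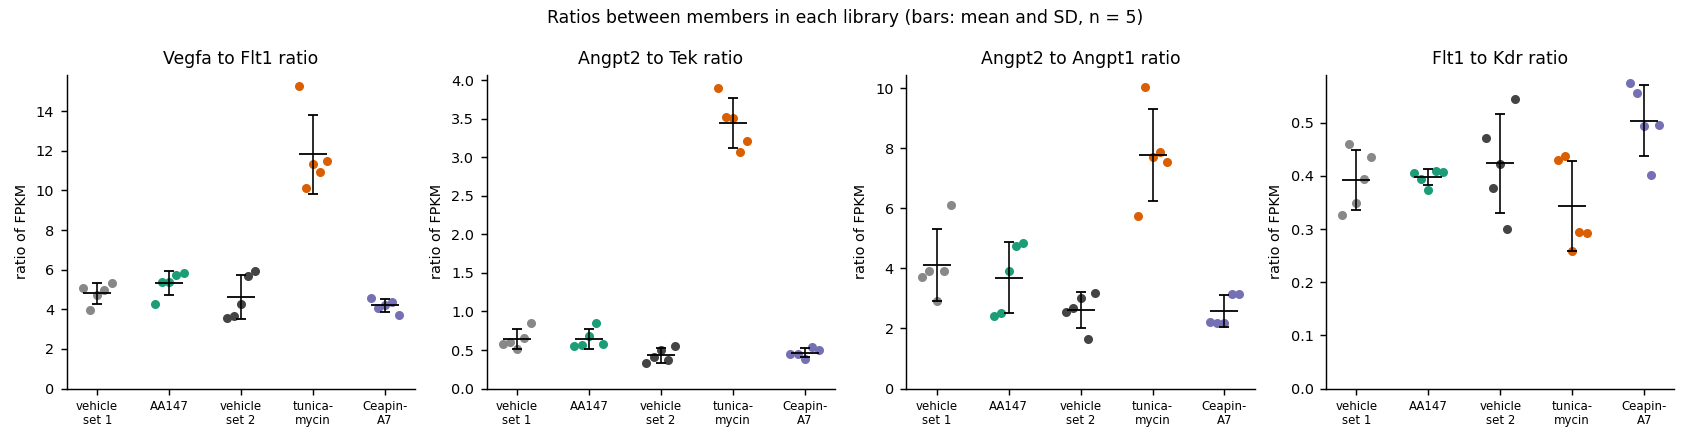
Ratio of FPKM values between members in each library, with 1 point per library and the mean and SD of 5 libraries per group. The Angpt2 to Tek ratio with tunicamycin begins at 3.07, above the 0.855 reached in any other group.

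The receptors and Angpt2 are expressed in endothelial cells, though not necessarily there alone, so vessel markers were read beside them. In vehicle set 2 Kdr stood at 38.1 FPKM, and Tek and Tie1 at 2.27 and 2.19 FPKM. Which cells held the RNA of each member was not tested. In bulk tissue, fewer vessel cells and less RNA per cell cannot be told apart. The summed level of the 20 endothelial markers was 114 to 131 FPKM with tunicamycin and 143 to 196 FPKM in vehicle set 2, without overlap. Among the 19 tested, 9 were lower and 4 higher, where 2.81% and 5.89% of all genes tested were called in those directions. The largest differences were in Ly6c1 and Ly6a, surface antigens of mouse endothelium (-2.31 and -1.89 on the log2 scale), in the tight junction gene Cldn5 (-1.32) and in the secreted endothelial factor gene Egfl7 (0.76). The junction gene Cdh5 was also higher (0.48 ± 0.10), and the pan-endothelial gene Pecam1 was at 4.33 FPKM against 4.70 FPKM (-0.10 ± 0.08, adjusted p = 0.478, limma). The part of these markers in the receptor differences was not tested.

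Pericyte and smooth muscle markers showed 5 of 11 lower and 0 higher, beside 2.81% and 5.89% of all genes tested. Rgs5 was at 5.30 FPKM against 17.6 FPKM (-1.57 ± 0.08), Higd1b at -1.15, Notch3 at -0.75 and Abcc9 at -0.69. Their summed level was 303 to 427 FPKM with tunicamycin and 318 to 475 FPKM in vehicle set 2, which overlapped. Rgs5 was a small part of that sum, which follows the most abundant genes of the list and not each marker. Pigment epithelium and choroid markers were lower in 5 of 11, led by Ttr (-3.02). Markers of Muller glia, which make VEGF-A, and of astrocytes, taken as 1 list, gave 0 calls of 15. Their sums of 1438 to 2532 FPKM overlapped those of vehicle set 2, 1908 to 2800 FPKM. Horizontal cells and photoreceptors gave 0 calls of 7 and 14. In either direction 8.7% of all genes tested were called, and lists this short can hold 0 calls at that share. The part of these cell types in the members' differences was not tested.

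**Figure D4:**
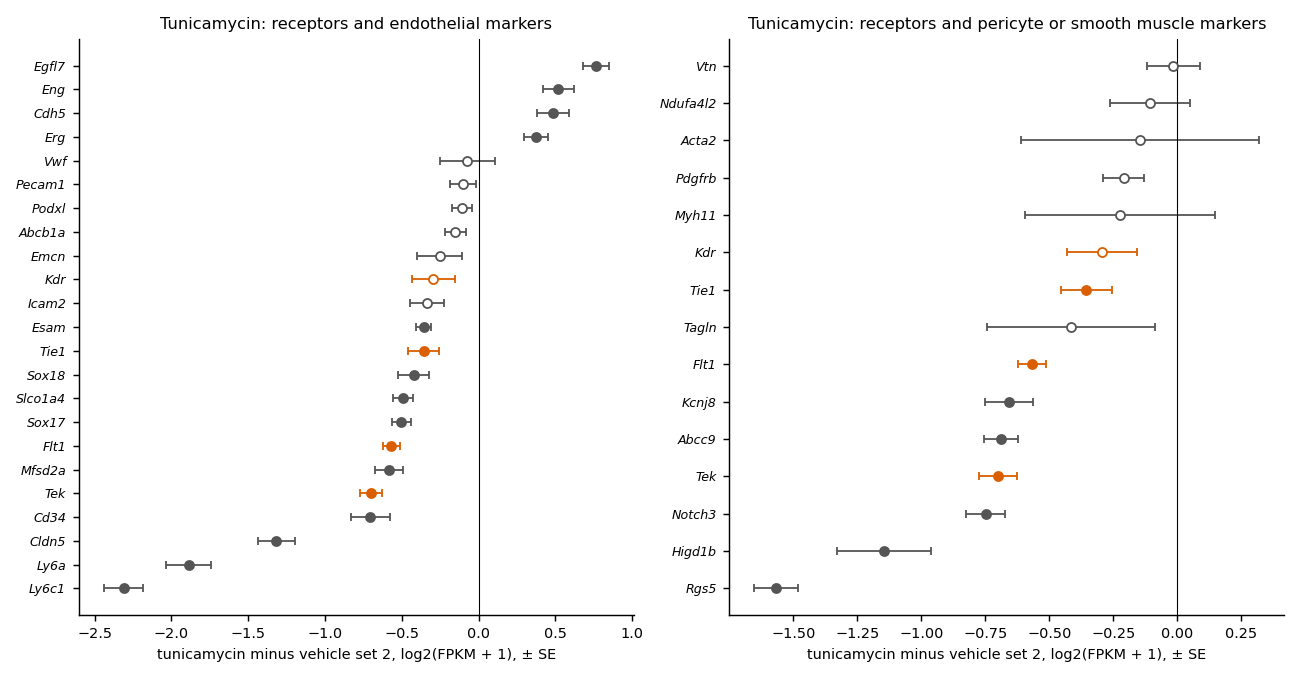
Difference in log2(FPKM + 1) between tunicamycin and vehicle set 2 with its SE for the 4 receptors (orange) and the markers (grey) of endothelium (left) and of pericytes and smooth muscle (right), open where the adjusted p was 0.05 or more. The receptors lie between -0.70 and -0.29, within the span of the endothelial markers, which runs from Ly6c1 at -2.31 to Egfl7 at 0.76.

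Other genes of the pathway were read from lists, beside 5.89% of all genes tested called higher and 2.81% called lower with tunicamycin. Among 16 tested co-receptors, further ligands and modulators, 0 were higher and 1 lower with tunicamycin, the semaphorin receptor gene Plxnd1 (2.67 against 4.26 FPKM, -0.48 ± 0.15, adjusted p = 0.0465, limma). The median of that list was -0.07, beside 0.01 for all genes tested. The VEGF co-receptor genes Nrp1 and Nrp2 (-0.19 and -0.04), the lymphatic receptor Flt4 (-0.06) and Ptprb, the phosphatase that restrains TEK (0.08), were not called. Of 28 signalling components, 1 was higher and 2 lower, with a median of -0.01. Nos3, the endothelial nitric oxide synthase gene downstream of KDR, was at 1.42 FPKM against 2.71 FPKM (-0.62 ± 0.07, adjusted p = 5.02e-06, limma). The adaptor gene Nck1 was higher (0.32) and the focal adhesion gene Pxn lower (-0.22).

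Of all genes tested, 5.89% were called higher and 2.81% lower with tunicamycin. Among 19 tip cell, Notch and endothelial response genes, 4 rose and 0 fell with tunicamycin, with a median of 0.07. They were Edn1, the vasoconstrictor endothelin-1 (11.3 against 1.56 FPKM, 2.26 ± 0.09, adjusted p = 3.44e-14, limma), the peptide ligand gene Apln (4.55 against 0.538 FPKM, 1.84), the endothelial guidance receptor gene Robo4 (3.83 against 1.33 FPKM, 1.06) and Pdgfb, which recruits pericytes (4.10 against 2.40 FPKM, 0.59). Of 24 hypoxia genes, 5 rose and 1 fell, with a median of 0.13. Adm, the vasodilator adrenomedullin, was at 2.87 against 0.456 FPKM (1.41 ± 0.12), Pdk1 and P4ha1 were higher by 0.35 and 0.32, and Epas1, which encodes HIF-2 alpha, was lower (-0.47). Hif1a stood at 163 FPKM in both groups, and the glucose transporter gene Slc2a1 was not called (0.11). ER stress genes rose in 16 of 18, with a median of 1.37. Their summed level was 1155 to 5721 FPKM with tunicamycin and 757 to 1169 FPKM in vehicle set 2, which overlapped. Ceapin-A7 and AA147 gave 0 calls in each of these lists and among all genes tested (0%).

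For each member with a median of at least 1 FPKM, the genes whose levels followed it most closely over the 15 libraries of tunicamycin, Ceapin-A7 and vehicle set 2 were listed. These correlations share the group differences and the library depths, and are descriptions. Angpt2 ran closest to Adm, Edn1 and Apln (Pearson r = 0.965, 0.963 and 0.961), Tek to Notch3, Pltp and Nos3 (0.980, 0.969 and 0.967), and Flt1 to Casq2, Ly6c1 and Rgs5 (0.967, 0.958 and 0.953). Vegfa ran closest to Pla2g12a, Plcxd1 and Srsf11 (0.943, 0.941 and 0.936). Tie1 was nearest to Sh3rf1, Cd34 and Cited4 (0.928, 0.912 and 0.903) and Kdr to Ddb2, Tmem106a and Nceh1 (0.910, 0.887 and 0.883). Vegfb, which was called in no comparison, had its nearest gene, Hhatl, at 0.803, and Vegfc and Pgf had theirs, Lats2 and Stk19, at 0.838 and 0.942.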

How the data were processed

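Retina RNA was measured in 25 libraries, 5 per group. Retinas were freed of cornea and lens and sequenced as stranded mRNA libraries on DNBSEQ, per the labels' protocols. The authors deposited FPKM values per gene, rounded to 2 decimals. HISAT2 2.0.4, RSEM 1.2.18, DESeq2 1.4.5 and the build GRCm39 appear in the submitters' processing notes, without role or order. Columns were matched to samples by name, and 0 other columns of libraries were present. The tables listed 18676 genes (AA147, vehicle set 1) or 19102 genes (the rest), and the 18440 shared genes were used. Levels set across these table families come from separately listed tables.

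FPKM holds no counts. Depth was estimated roughly from steps of low values, and whole fragments were not recovered, so no count model was run. The median estimate was 23.4 M fragments, at which 1 FPKM over 2 kb is 41.0 fragments. Genes reaching 1 FPKM in 5 or more libraries were tested as log2(FPKM + 1) in one 5-group model with limma 3.58.1 (R 4.3.3), two-sided, with a variance trend and Benjamini-Hochberg adjustment over 13117 genes, called under 0.05. The pooled spread understates that of a more variable group. The code was tested on simulated data. The labels do not say whether each library is a separate animal, so the p-values reflect only variation among libraries, possibly technical.

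The members and lists were chosen with earlier results of these data known. All 10 members are named. From each list the called genes with the largest change were named, up to 4, and other list genes named were chosen after their values were seen. Likeness used the 3 genes with the highest Pearson r. Alternatives changed the pseudocount, filter, scaling, weights, variance trend, covariates, block, control set and libraries. The covariate for lens level and the fit without the 6 libraries rich in Cryaa were chosen after seeing the data. Promoters come from RefSeq, and exon overlaps from a GENCODE annotation of an earlier build than GRCm39. Python 3.11.15, pandas 2.3.3, numpy 2.4.6 and matplotlib 3.10.9 were used.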

Additional observations from a re-analysis of the deposited data

Results flagged for a closer look

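Among the 50 sets of 5 libraries formed by 10 members and 5 groups, 2 held a library far from the others by Dixon's 95% criterion, which chance alone meets in about 1 in 20 groups. Pgf was 4.31 FPKM in vehicle set 2 replicate 4, with the other 4 libraries at 1.17 to 1.98 FPKM. Tek was 2.56 FPKM in vehicle set 1 replicate 2, with the other 4 at 1.79 to 1.92 FPKM. Without the latter, the Tek difference between vehicle sets was 0.18 (adjusted p = 0.0376, limma), past the threshold.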

How the results depend on the processing

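Vegfa, Flt1, Angpt2 and Tek kept their direction and their call against vehicle set 2 under each of the 27 alternatives run for tunicamycin, with log2 differences of 0.62 to 0.97, -0.61 to -0.47, 0.97 to 1.84 and -1.17 to -0.58. Tie1 kept its call in 17 of 27 (-0.56 to -0.16), and Kdr gained one in 3 of 27. Tie1 also lost its call with library weights (adjusted p = 0.141), without vehicle libraries 4 and 5 (0.0979), with the table family alone (0.0974) and with the compared groups alone (0.171). Of 1789 values of members under alternatives, 1750 stayed on their side of the threshold, 14 lost a call, 25 gained one and 0 called values changed sign, while 88 uncalled values did.

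The number of genes called for tunicamycin against vehicle set 2, 1141, became 430 with Ddx3y as a covariate, 389 within the table family, 74 with the compared groups alone, 5743 against both vehicle sets, 7381 against the other vehicle set and 110 without the libraries rich in Cryaa. Leaving out 1 library gave 607 (without tunicamycin library 1) to 1983 (without tunicamycin library 3). For Ceapin-A7, 0 became 4384 against both vehicle sets and 6676 against the other, and 0 to 19 when 1 library was left out. For AA147, 0 became 1 with the covariate, 2948 against both sets and 6016 against the other, and 0 to 1 when 1 library was left out. Tunicamycin against Ceapin-A7 went from 1746 to 703 within the family, 595 with the compared groups alone and 82 without the libraries rich in Cryaa, and to 923 to 2871 when 1 library was left out (tunicamycin library 1 and 3). The vehicle sets gave 6145, and 5719 to 6012 when 1 library was left out. AA147 against Ceapin-A7, each relative to vehicle, gave 0, and 0 to 1 when 1 library was left out. Tunicamycin against AA147 in the same way went from 136 to 427 with library weights, 60 with the covariate, 80 with the compared groups alone and 33 without the libraries rich in Cryaa, and to 89 (without AA147 library 3) to 634 (without tunicamycin library 3). Smaller fits hold fewer samples, and otherwise the cause was not tested. The split of 773 higher and 368 lower genes for tunicamycin against vehicle set 2 became 581 and 558 under median-ratio scaling, and 567 and 572 after quantile normalization. That of 1158 and 588 against Ceapin-A7 became 917 and 823, and 824 and 721.

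With the replicate number as a block, the same comparisons gave 1115, 0, 0, 1727, 6119, 0 and 120 genes, no member lost its call, and Angpt2 became called between the vehicle sets (adjusted p = 0.0261). Same-numbered tunicamycin and vehicle set 2 libraries correlated at -0.426 to 0.396 in their deviations, and 0 of 5 correlated best with their own number, so the number was not taken as a pairing.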
